A study of Homo sapiens with 12 samples.

Results

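The comparison of CP25 with vehicle after 2 h of transcription block covered 6 of the 12 libraries of the study, 3 from cells given CP25 and 3 from cells given vehicle. FPKM, the unit of all levels here, is the number of fragments scaled to transcript length and to library depth. A gene entered the comparison if its mean over those 6 libraries reached 1 FPKM, as did 11745 of the 23615 listed gene symbols (49.7%). With the minimum at 1 FPKM, 155 genes had a mean of 1.0 to 1.1 FPKM and lay just inside it, and 161 genes with 0.9 to 1.0 FPKM lay just outside. HEK293T is an established line from human embryonic kidney with the large T antigen of SV40. Its cells had been held for 18 h with 2 µM CP25, which the labels call a macrocyclic Dcp2 inhibitor, or with an equal volume of vehicle, which the labels describe as peptide storage buffer. Both groups then received 5 µg/mL actinomycin D, and poly(A) RNA was taken 2 h later. The matching groups at 0 h had the same pretreatment, with no hours of block, and are used below only where a 2 h result is set beside them. The labels number the replicates 1 to 3 without saying that they were separate cultures, so the spread behind each p-value is that of the libraries and may be technical only.

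Most mRNAs carry a methylated cap at the 5′ end and a poly(A) tail at the 3′ end. After the tail is shortened, DCP2 with its cofactors DCP1A, DCP1B, EDC3 and EDC4 cuts off the cap, and the exonuclease XRN1 degrades the body of the message from its 5′ end. Actinomycin D binds DNA and stops RNA synthesis, so what is left afterwards is mRNA made before the block, and the title of the series names the half-life of mRNA under a decapping inhibitor as its question. FPKM is a share of the library, so a difference between CP25 and vehicle after the block is a difference relative to the other transcripts, and a change common to all transcripts cannot be seen in it.

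The 6 libraries at 2 h held an estimated 21.6 to 28.9 × 10⁶ fragments, and 1 FPKM of a 2 kb transcript stood for 43.3 to 57.8 fragments. Outside small RNA genes, log2 values correlated across genes at 0.9899 to 0.996 within a group and at 0.9906 to 0.9982 between the groups, and genes are not independent replicates. Of 14 markers of kidney epithelial and HEK293T cells, 5 reached 1 FPKM, led by vimentin at a mean of 240 FPKM and KRT18, and the tubule marker UMOD was listed at 0 in all 6. Of 12 haematopoietic markers none reached 1 FPKM, with summed levels of 0.989 to 1.97 FPKM in vehicle and 1.35 to 1.64 FPKM in CP25, and PTPRC, CD3E, CD3D and HBB were listed at 0. Of 11 fibroblast and endothelial markers 2 did, COL1A1 and COL3A1, and of 9 keratinised or glandular markers only KRT10 did. Small RNA genes, whose short length makes FPKM unstable, made up 13% of the FPKM sum of CP25 replicate 3 and 0.256% to 0.513% of the other 5 libraries. In that library SNORD63, a small nucleolar RNA (snoRNA) of 68 bases that lies within HSPA9, was listed at 75785 FPKM, and it was listed at 0 in the other 5.

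After 2 h of block the poly(A) RNA of CP25-treated cells differed little, gene by gene, from that of vehicle-treated cells. No gene outside the small RNA genes passed the test: limma called 0 of 11633 such genes at an adjusted p of 0.05. Among all 11745 genes it called 1 (0.00851%), the snoRNA gene SNORD76. At an unadjusted p under 0.05, 45 genes were higher with CP25 (0.383%) and 42 lower (0.358%). The authors' deposited p-values, adjusted here over 13275 genes, gave 0 calls, with 74 genes at an unadjusted p under 0.05. Same-numbered libraries varied together, and with the replicate number as a block limma again called 0 genes outside small RNA genes, with 428 genes higher (3.64%) and 386 lower (3.29%) at an unadjusted p under 0.05.

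The sizes of the differences were small. Over the 11633 genes the log2 change had a median of 0.01 and ran from -0.12 at the 5th percentile to 0.12 at the 95th, on the scale of log2(FPKM + 1). The median size without regard to sign was 0.05, and 99.4% of genes lay within 1.2-fold. On the scale of FPKM + 1 no gene differed by more than 2-fold, and 3 genes differed by more than 1.5-fold, all lower with CP25. These 3 were picked out after their values were seen: EEF1E1-MUTED, a read-through transcript of 2 neighbouring genes, with a log2 change of -0.80 (95% interval -1.60 to 0.01), FAM45A with -0.74 (-1.64 to 0.17) and NBL1 with -0.66 (-1.35 to 0.03). All 3 intervals included 0. With the replicate block that of EEF1E1-MUTED was -1.15 to -0.45 and did not, while those of FAM45A and NBL1 did, and the limma adjusted p of all 3 was 0.716. Adding 1 FPKM shrinks the changes of genes at low levels. In mean FPKM, for example, PARD6A with CP25 was at 63.4% of vehicle and is not among the 3.

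**Figure D1:**
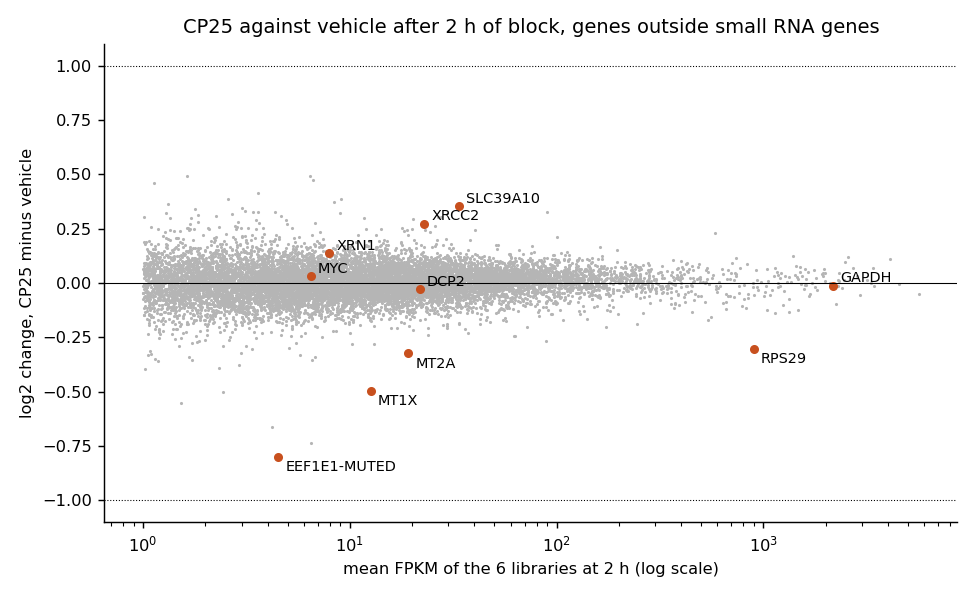
Each grey point is 1 of the 11633 genes outside small RNA genes, with its mean FPKM over the 6 libraries at 2 h on a log scale against its log2 change of FPKM + 1, CP25 minus vehicle. Orange points are genes named in the text, and the dotted lines mark a 2-fold change in either direction, which no point crosses.

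The libraries bounded the change of most transcripts closely. The 95% limma interval had a median half-width of 0.22 on the log2 scale, a factor of 1.17, and for 99.8% of the 11633 genes it lay wholly within a 2-fold change in either direction. It lay within 1.5-fold for 97.2% of genes and within 1.2-fold for 43.5%. For genes at 1 to 5 FPKM the share within 1.5-fold was 94.3%, and above 100 FPKM it was 99.6%. With the replicate block the median half-width was 0.13 and 99.6% of intervals lay within 1.5-fold. These intervals are per gene, without adjustment for their number. They are on the scale of FPKM + 1, which narrows them for genes at low levels. With 0.01 FPKM added in place of 1, the share within 2-fold was 98.8%.

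The mRNAs of the decapping machinery differed little between the groups. DCP2, the catalytic subunit, was at 21.7, 23.7 and 20.6 FPKM in vehicle replicates 1 to 3 and at 21.9, 24.3 and 18.6 FPKM with CP25, a log2 change of -0.03 (95% limma interval -0.28 to 0.22). DCP1A, its main activator, was at 5.83, 6.17 and 6.43 FPKM against 6.15, 5.95 and 5.99 FPKM, and the groups overlapped for both genes. The paralog DCP1B had a log2 change of 0.07 (-0.14 to 0.28), the enhancer EDC3 -0.04 (-0.28 to 0.20) and the scaffold EDC4 -0.06 (-0.39 to 0.27). DDX6, an RNA helicase that joins decapping to translational repression, was at 49.8, 64.1 and 52.5 FPKM in vehicle and 48.7, 58.3 and 45.9 FPKM with CP25. Each CP25 library of DDX6 lay below the vehicle library of its number, while the groups overlapped and the log2 change was -0.12 (-0.40 to 0.16, and -0.23 to -0.01 with the replicate block). PATL1 and LSM1, which bind deadenylated mRNA and recruit DCP2, had log2 changes of -0.02 and -0.04. Of the 20 measured genes of decapping and its activation, 9 were higher and 11 lower by value, with a median of -0.01 against 0.01 over all genes tested, and limma called 0. No gene of this list had groups that did not overlap.

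XRN1, which degrades decapped mRNA, was at 7.10, 7.79 and 7.60 FPKM in vehicle and at 8.62, 8.34 and 8.08 FPKM with CP25. All 3 CP25 libraries lay above all 3 vehicle libraries, which was so for 290 of the 11745 genes (2.47%) in this direction and for 205 genes (1.75%) in the other. The log2 change of XRN1 was 0.14 (-0.03 to 0.30, and 0.01 to 0.27 with the replicate block), and limma's adjusted p rounded to 1. At 0 h the XRN1 change had the other sign, -0.10, and with the replicate block the 2 h change had a limma adjusted p of 0.716. It was the only member of 21 exonucleases and exosome subunits without overlap. In that list 14 members were higher and 7 lower by value, with a median of 0.03. The deadenylation list of 21 had 12 higher and 9 lower, and 1 of its members was higher without overlap. CNOT6L, a catalytic deadenylase of the CCR4-NOT complex, was at 6.33 ± 0.445 FPKM in vehicle and 6.89 ± 0.215 FPKM with CP25 (SD, n = 3). Of 14 other Nudix and scavenger enzymes that act on caps or nucleotides, 7 lay on each side of 0 and 1 was higher without overlap. Among them NUDT12, which removes NAD caps, was at 12.5 ± 0.856 FPKM in vehicle and 13.8 ± 0.556 FPKM with CP25.

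EXOSC4, an exosome subunit whose mRNA has been reported as a Dcp2 substrate, was at 12.2, 15.2 and 15.9 FPKM in vehicle and at 11.2, 12 and 16.3 FPKM with CP25. The groups overlapped, and the log2 change of -0.14 (-0.49 to 0.22) was below 0 by value. IRF7, an interferon regulator reported as another substrate, was at 0 to 0.0490 FPKM in the 6 libraries and did not reach the minimum for testing. Of 18 factors of nonsense-mediated decay, which destroys mRNA with early stop codons, 9 were higher and 9 lower. Among 38 measured targets of that pathway 11 were higher and 27 lower, with a median of -0.03 and pair medians of -0.04, -0.07 and -0.03 in replicates 1 to 3. The lowest by p in the target list was SNHG15, a snoRNA host gene, at 6.48, 7.22 and 8.62 FPKM in vehicle and 4.13, 5.83 and 7.11 FPKM with CP25. Its groups overlapped, and the log2 change was -0.35 (-0.75 to 0.05, and -0.52 to -0.18 with the replicate block, limma adjusted p = 0.716).

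Short-lived regulatory mRNAs, which code for transcription factors and signalling proteins made in bursts, had no consistent direction over the 3 pairs. MYC, a growth transcription factor with a short-lived mRNA, was at 5.71, 3.92 and 9.52 FPKM in vehicle and at 7.29, 3.56 and 8.79 FPKM with CP25, a log2 change of 0.03 (-0.77 to 0.83). JUN, a subunit of the AP-1 transcription factor, was at 4.20, 2.79 and 7.51 FPKM against 5.59, 2.98 and 5.47 FPKM. For both genes replicate 2 was the lowest library in each treatment. IER2 had a log2 change of 0.02 (-0.40 to 0.45), and FOS, the partner of JUN in AP-1, was at 0.0317 to 0.117 FPKM and was not tested. Of 54 immediate-early and AU-rich mRNAs in the table, 27 reached 1 FPKM after the block, 16 higher and 11 lower by value, with a median of 0.02 and 0 calls. The pair medians were 0.15, -0.05 and -0.06. GAPDH, a stable glycolytic mRNA, was at 2254, 1915 and 2350 FPKM in vehicle and 2353, 1812 and 2312 FPKM with CP25.

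Grouping the genes by how far they declined over the block showed a shallow gradient. Genes outside small RNA genes were put in 10 classes of equal size by their log2 ratio of 2 h to 0 h, averaged over the treatments. The class with the lowest ratio (median -1.05) had a median change of -0.03, with 429 genes higher and 731 lower. The class with the highest ratio had a median of 0.03, with 816 higher and 344 lower. In replicate 1 alone the lowest and highest classes had medians of -0.0024 and -0.011, in replicate 2 -0.051 and 0.0045, and in replicate 3 -0.030 and 0.081. The gradient was thus absent from replicate 1. The ratio that set the classes uses the same 2 h libraries. The base composition of the transcripts also differed between the classes. The median GC content was 52.7% in the class with the lowest ratio, 55.5% in the next, and lower in each class after that, down to 44.2% in the class with the highest ratio.

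GC content itself went with the sign of the change. In 5 classes of equal size by transcript GC, the median change was 0.04 in the lowest class (31.4% to 42.3% GC) and -0.04 in the highest (58.4% to 74.2% GC), and each replicate pair showed this direction. Of the 2157 genes in the lowest class 115 were higher without overlap (5.33%) and 12 lower (0.556%), and of the 2156 in the highest 10 were higher (0.464%) and 48 lower (2.23%), against 2.47% and 1.75% over all genes tested. At 0 h the medians were -0.02 and 0.01, with the opposite sign. After a trend on transcript length and GC was removed from each library, the 10 classes by decline had medians of -0.02 in the lowest and 0.01 in the highest. With that trend removed the log2 change of the repair gene XRCC2 was 0.24, that of MT1X -0.48 and that of SLC39A10 0.31.

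**Figure D2:**
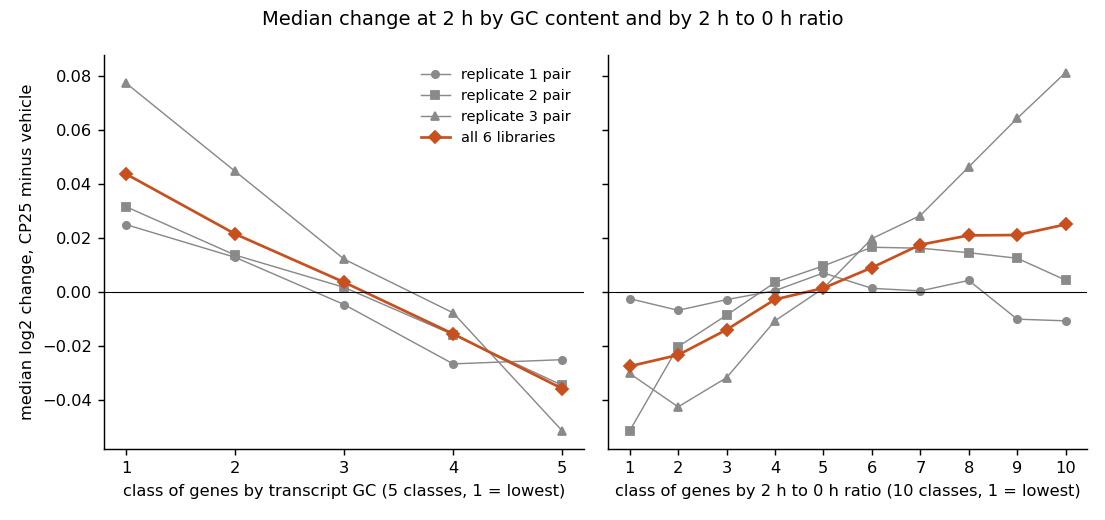
Median log2 change of FPKM + 1, CP25 minus vehicle at 2 h, for 5 classes of genes by transcript GC content on the left and for 10 classes by their 2 h to 0 h ratio on the right. Grey lines are the 3 same-numbered pairs and orange is all 6 libraries. The GC gradient runs from 0.04 to -0.04, with the highest class below the lowest in each pair, and the gradient by decline appears in replicates 2 and 3 and not in replicate 1.

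The genes that separated the 2 groups most cleanly were few and their differences were modest. None passed limma's adjusted p of 0.05, which rounded to 1 for each gene outside small RNA genes named here, and was 0.716 with the replicate block for those with the smallest p. Among genes higher with CP25, XRCC2, a protein of homologous recombination, was at 20.7, 20.4 and 21.0 FPKM in vehicle and at 27.5, 25.5 and 22.8 FPKM with CP25, a log2 change of 0.27 (95% limma interval 0.09 to 0.46, unadjusted p = 0.0103). TCEAL1, a nuclear elongation-factor-like protein, was at 26.5, 26.1 and 21.3 FPKM against 28.4, 31.4 and 31.7 FPKM (0.30). AHR, the aryl hydrocarbon receptor, a ligand-activated transcription factor, was at 2.44, 2.79 and 2.62 FPKM against 2.90, 4.06 and 3.78 FPKM (0.33). In each of the 3 the CP25 libraries lay above every vehicle library. KIAA1919, with the smallest unadjusted p in this direction (0.00774), was at 2.28, 2.84 and 2.52 FPKM in vehicle and 3.4, 3.84 and 3.28 FPKM with CP25 (0.35). SYNJ2BP, an outer mitochondrial membrane protein, had a log2 change of 0.29 (0.07 to 0.52), and the aminopeptidase XPNPEP3 0.30 (0.08 to 0.52). SAMD5, LMBRD2, ARHGAP11B, C4orf29, HNRNPA1L2 and LIN7A had changes of 0.19 to 0.33. With the replicate block the smallest p-values among higher genes also included SUZ12P1 (0.32), ZNF708 (0.33) and C18orf32 (0.47), whose groups overlapped.

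At 0 h several of these genes stood on the other side of 0. XRCC2 had a log2 change of -0.24 before the block, KIAA1919 -0.26, XPNPEP3 -0.26 and AHR -0.15, and the difference between the times for XRCC2 was 0.51 (95% limma interval -0.14 to 1.16, and 0.30 to 0.72 with the replicate block, adjusted p = 0.271). Of the 288 genes outside small RNA genes that were higher without overlap at 2 h, 94 were higher and 194 lower by value at 0 h. Of the 202 that were lower without overlap, 127 were higher and 75 lower at 0 h. The median change at 0 h was -0.03 in the first set and 0.02 in the second, against -0.0036 over all genes outside small RNA genes. The sets also differed in GC content, with medians of 43.0% and 54.7% against 49.3% over all genes tested. The classes by GC changed sign between the times as well, and the part of GC in these counts was not tested. The difference of the 2 CP25 effects passed limma's test for 0 of 12183 genes, also with the replicate block.

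Among genes lower with CP25, BEX5, a small brain-expressed X-linked family member, was at 3.09, 2.46 and 2.76 FPKM in vehicle and at 2.04, 1.92 and 1.67 FPKM with CP25, a log2 change of -0.39 (-0.62 to -0.15, limma unadjusted p = 0.00551). BAK1, a pore-forming protein of the apoptotic BCL2 family, was at 20.9, 23.1 and 21.4 FPKM against 17.6, 19.6 and 18.6 FPKM (-0.22). DDT, D-dopachrome tautomerase, a relative of the cytokine MIF, was at 70.2, 64.1 and 69.3 FPKM against 61.5, 55.2 and 55.1 FPKM (-0.24). None of the 3 had overlapping groups. At 0 h BEX5 was again lower by value (-0.32), BAK1 was level (0.00) and DDT was higher by value (0.29). RPS29, a protein of the small ribosomal subunit, was at 1056, 867 and 1052 FPKM in vehicle and at 836, 708 and 866 FPKM with CP25, so that the highest CP25 library and the lowest vehicle library nearly touched. HIST1H2BD, a histone H2B gene, had a log2 change of -0.50 (-0.89 to -0.12), PARD6A, a cell polarity adaptor, -0.35 (-0.59 to -0.10), and MYEOV2, a subunit of the COP9 signalosome, -0.27 (-0.46 to -0.08). The noncoding RNAs SNHG11 and FOXN3-AS1 had changes of -0.31 and -0.33.

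**Figure D3:**
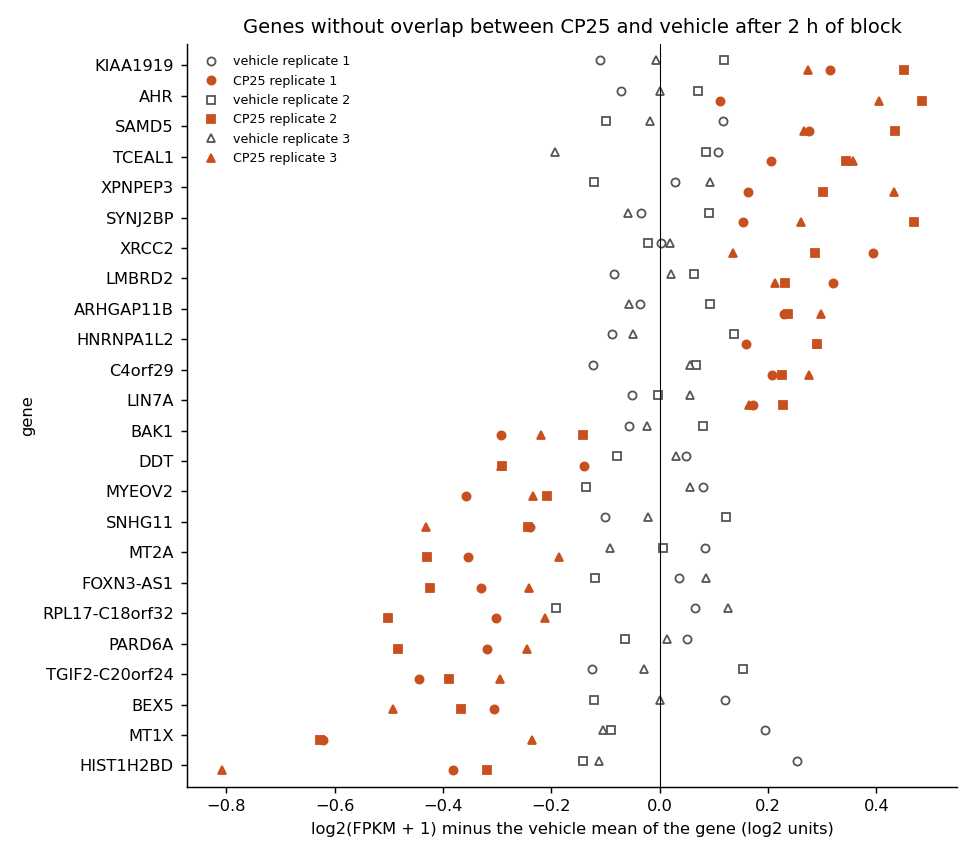
Each row is a gene outside small RNA genes with no overlap between the groups and one of the 12 smallest unadjusted limma p-values in its direction. Points are libraries, as log2(FPKM + 1) minus the mean of the 3 vehicle libraries of that gene, open for vehicle and filled for CP25, with the shape giving the replicate number. The CP25 points lie to the right of all vehicle points in the upper 12 genes and to the left in the lower 12.

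Several of the larger differences lay in pairs of overlapping gene models, between which fragments can be divided in more than 1 way. RPL17-C18orf32 was at 8.02, 6.55 and 8.42 FPKM in vehicle and 6.0, 5.09 and 6.45 FPKM with CP25, while C18orf32, contained in it, was at 7.37, 5.47 and 3.61 FPKM against 9.36, 7.63 and 6.49 FPKM. Their sum was 13.1 ± 1.95 FPKM in vehicle and 13.7 ± 1.47 FPKM with CP25 (SD, n = 3), a log2 change of 0.06. EEF1E1-MUTED was at 7.73, 4.07 and 5.76 FPKM against 5.74, 1.85 and 1.96 FPKM, and with BLOC1S5, the gene it runs into, the sum was 13 ± 0.967 FPKM against 12.8 ± 1.45 FPKM, a log2 change of -0.02. The opposite differences within these 2 pairs thus summed to nearly 0. FPKM is scaled to transcript length, so such a sum is not a count of fragments. The sums leave out the other gene of each read-through. RPL17 was at means of 1148 FPKM in vehicle and 1195 FPKM with CP25, and EEF1E1 at 79.2 and 79.4 FPKM. TGIF2-C20orf24 (-0.38) is a further read-through model, for which no sum was made.

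The zinc-handling genes MT1X, MT2A, SLC30A1 and SLC39A10 differed by value with the same sign at both times. Metallothioneins are small cysteine-rich proteins that bind zinc and copper, and the transcription factor MTF1 induces their genes, and that of the zinc exporter SLC30A1, when free zinc is high. SLC39A10 brings zinc into the cytoplasm, and its expression is known to go down when zinc is plentiful. MTF1 binds metal response elements, and the core of such an element was searched as TGCACNC or TGCGCNC on both strands in the 250 bases before the RefSeq start of these genes on GRCh38.p14, shown because MT1X and MT2A were both lower without overlap. Matches are in capitals and read 5′ to 3′ along the strand of the gene. The windows are MT1X at chr16:56682220-56682469 on the plus strand, MT2A at chr16:56608334-56608583 on the plus strand and SLC30A1 at chr1:211579162-211579411 on the minus strand.
MT1X: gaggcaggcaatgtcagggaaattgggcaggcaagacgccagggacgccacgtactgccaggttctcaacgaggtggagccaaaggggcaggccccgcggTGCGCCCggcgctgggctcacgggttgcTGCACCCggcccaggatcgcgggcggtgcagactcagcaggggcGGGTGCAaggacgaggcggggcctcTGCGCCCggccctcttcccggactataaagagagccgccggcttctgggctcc
MT2A: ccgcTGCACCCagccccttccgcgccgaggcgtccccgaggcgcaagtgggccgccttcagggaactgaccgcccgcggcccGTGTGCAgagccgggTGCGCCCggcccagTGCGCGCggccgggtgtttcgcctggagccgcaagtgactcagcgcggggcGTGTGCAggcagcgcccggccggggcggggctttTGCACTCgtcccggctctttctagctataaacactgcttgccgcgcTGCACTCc
SLC30A1: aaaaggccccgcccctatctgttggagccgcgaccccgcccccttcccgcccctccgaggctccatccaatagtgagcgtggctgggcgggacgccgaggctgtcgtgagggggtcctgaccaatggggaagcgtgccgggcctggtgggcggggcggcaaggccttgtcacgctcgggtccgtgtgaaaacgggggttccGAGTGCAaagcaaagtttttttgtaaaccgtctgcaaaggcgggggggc
The MT1X window held 4 matches, the MT2A window 7 and the SLC30A1 window 1, and the 2 RefSeq windows of SLC39A10 held none of these letters. Of 35116 windows of the same length, 24.8% held at least 1 match, 0.37% at least 4 and 0.12% at least 5. A match is a run of letters and not a measured binding site.

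MT1X was at 17.1, 13.8 and 13.7 FPKM in vehicle and at 9.28, 9.24 and 12.4 FPKM with CP25, a log2 change of -0.49 (95% limma interval -0.80 to -0.19, unadjusted p = 0.00643, adjusted p = 1). MT2A was at 22.7, 21.4 and 20.0 FPKM against 16.5, 15.6 and 18.6 FPKM, a log2 change of -0.32 (-0.52 to -0.12). For both, every CP25 library lay below every vehicle library, and CP25 replicate 3 lay nearest to vehicle. MT1F was at 2.60, 0.908 and 1.81 FPKM against 1.29, 0.776 and 1.59 FPKM, overlapping, with each CP25 library below its number in vehicle. The coding sequences of metallothioneins are nearly identical, so fragments can be shared among MT1X, MT1F and their relatives and single levels are uncertain. MT1A, MT1B, MT1E, MT1G, MT1H, MT1L, MT1M and MT3 were listed at 0 in all 6 libraries. SLC30A1 was at 2.62, 3.79 and 2.46 FPKM in vehicle and 2.13, 2.71 and 2.08 FPKM with CP25, and SLC39A10 at 31.1, 25.9 and 30.8 FPKM in vehicle and 42.4, 29.7 and 42.0 FPKM with CP25. Both overlapped between the groups, and within each replicate number SLC30A1 was lower and SLC39A10 higher with CP25.

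Before the block these genes were measured in the same way. MT1X was at 16.8, 20.0 and 29.5 FPKM in vehicle at 0 h and at 18.3, 11.9 and 15.4 FPKM with CP25, and MT2A at 22.0, 25.5 and 32.4 FPKM against 19.7, 22.4 and 23.5 FPKM. SLC39A10 was at 23.8, 28.6 and 26.2 FPKM against 27.8, 35.5 and 29.6 FPKM. Over the 6 same-numbered pairs of both times SLC39A10 was higher with CP25 in 6 of 6, as were 146 of 12183 genes (1.2%), and MT2A, SLC30A1 and BEX5 were lower in 6 of 6, as were 174 genes (1.43%). MT1X and MT1F were lower in 5 of 6. SLC39A10, MT2A, MT1X and BEX5 were named for their 2 h values, so their 3 pairs at 2 h carry no separate weight. The shares over all genes thus overstate how rare such agreement is. At 2 h alone all 3 pairs were higher for 1961 of 11745 genes (16.7%) and lower for 1609 (13.7%). In the fit of the mean CP25 effect over both times, chosen after seeing the data, SLC39A10 had the smallest p of all genes with the replicate block (log2 change 0.29, unadjusted p = 7.22e-05, limma adjusted p = 0.879), and 0 genes passed with or without the block. The 2 h and 0 h effects differed by -0.01 for MT1X (-0.61 to 0.60), by -0.07 for MT2A (-0.44 to 0.31) and by 0.13 for SLC39A10 (-0.30 to 0.55).

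**Figure D4:**
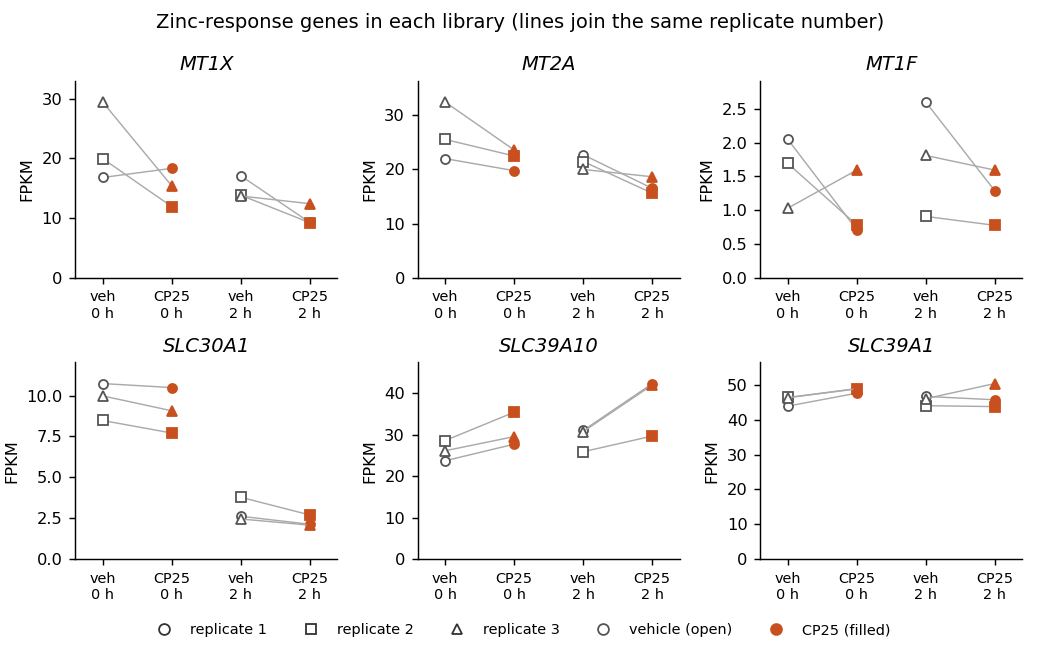
FPKM of 6 zinc-response genes in each of the 12 libraries, vehicle open and CP25 filled, with lines joining libraries of the same number within a time. CP25 lies below vehicle in all 6 pairs of MT2A and SLC30A1 and in 5 of 6 of MT1X, above it in all 6 of SLC39A10, and SLC39A1 had a log2 change of 0.03 at 2 h. The 0 h and 2 h tables may be scaled separately, so levels are to be read within a time.

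The list of 18 metallothioneins and zinc-response genes had 8 members that reached 1 FPKM, 3 higher and 5 lower by value, with a median of -0.16 and 0 calls. The median of that list was 0.0042 when a mean of 5 FPKM was required, which leaves out MT1F, SLC30A1 and MTF1, and -0.035 with no minimum. MTF1 itself had a log2 change of -0.07 (-0.29 to 0.15). SLC39A1 and SLC30A5, zinc transporters of the importer and exporter families, had log2 changes of 0.03 and 0.00. This list was chosen with earlier results of these libraries known, so its counts describe its members and carry no independent weight.

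SNORD76, the 1 gene that passed the test, is a snoRNA gene of 81 bases that lies within the host gene GAS5. It was at 52.7, 54.9 and 137 FPKM in vehicle at 2 h while each CP25 library at 2 h listed it at 0 (adjusted p = 0.00155 in limma, and 0.00217 with the replicate block). At 0 h it was listed at 0, 370 and 0 FPKM in vehicle and at 426, 114 and 153 FPKM with CP25, so that the mean was higher with CP25 while the groups overlapped. With robust variances the limma adjusted p was 0.0597, and in a fit of all 12 libraries it rounded to 1. Of the 112 small RNA genes tested at 2 h, 92 were listed at 0 in at least 1 library and 52 had changes over 2-fold. The host GAS5 was at 85.9, 61.1 and 96.0 FPKM in vehicle and 95.4, 55.3 and 82.4 FPKM with CP25 (log2 change -0.07), with overlapping groups.

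Gene lists of the main housekeeping programmes differed little between the groups, and limma called no member of any of them. The sign of the list median changed in 19 of 20 lists when 1 library was left out, all but the zinc list. Leaving out 1 library also leaves its same-numbered partner unmatched, so these changes do not show that a median rests on 1 library. Of 77 nuclear-encoded subunits of oxidative phosphorylation, which carry out respiration, 26 were higher and 51 lower by value, with a median of -0.02 and pair medians of -0.08, -0.06 and 0.08. UQCRQ, a subunit of complex III, was at 51.6, 47.2 and 52.5 FPKM in vehicle and 44.6, 42.1 and 46.6 FPKM with CP25. ATP5G3, a subunit of the ATP synthase ring, was at 110, 109 and 107 FPKM against 97.4, 99.4 and 102 FPKM. Those 2 and COX7C and ATP5B were among the 7 members lower without overlap, and NDUFV3 was the only one higher, at 28.4 ± 1.34 FPKM in vehicle and 31.9 ± 1.29 FPKM with CP25 (SD, n = 3). Over all genes tested 1.75% were lower and 2.47% higher without overlap. Of 31 proteasome genes 7 were higher and 24 lower, with pair medians of -0.09, -0.04 and 0.07. The 78 cytoplasmic ribosomal protein mRNAs had 36 higher and 42 lower, 2 of them lower without overlap, with pair medians of -0.06, -0.07 and 0.10. In these 3 lists the third pair had the opposite sign to the other 2.

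Of 34 homologous recombination and crosslink repair genes, which mend DNA breaks, 22 were higher and 12 lower by value, with a median of 0.04. MRE11A, a nuclease that trims broken ends, was at 16, 17.8 and 15.4 FPKM in vehicle and 18.4, 20.5 and 17.5 FPKM with CP25, overlapping between the groups and higher in each replicate number. Of 30 ER stress and ATF4 response genes 8 were higher and 22 lower, with a median of -0.04 and pair medians of -0.04, -0.04 and -0.03. HSPA5, the main chaperone of the endoplasmic reticulum, was at 198, 191 and 181 FPKM in vehicle and 192, 166 and 165 FPKM with CP25. Among 24 sterol synthesis genes 12 were higher and 12 lower by value, and 2 were lower and 0 higher without overlap. SRXN1, which reduces oxidised peroxiredoxins, was at 18.7, 18.5 and 19.1 FPKM against 14.9, 16.6 and 17.9 FPKM, the 1 oxidative stress gene of 19 without overlap, where all genes tested gave 1.75% lower and 2.47% higher. The 20 TOP translation factors had 15 higher and 5 lower with a median of 0.02, and 1 was higher without overlap. The 17 heat shock genes had 10 higher and 7 lower, and the 24 p53 targets 9 and 15. For the 32 hypoxia and glycolysis genes these counts were 15 and 17, and for the 18 interferon response genes 10 and 8. Over all genes tested 6305 were higher and 5440 lower by value.

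**Figure D5:**
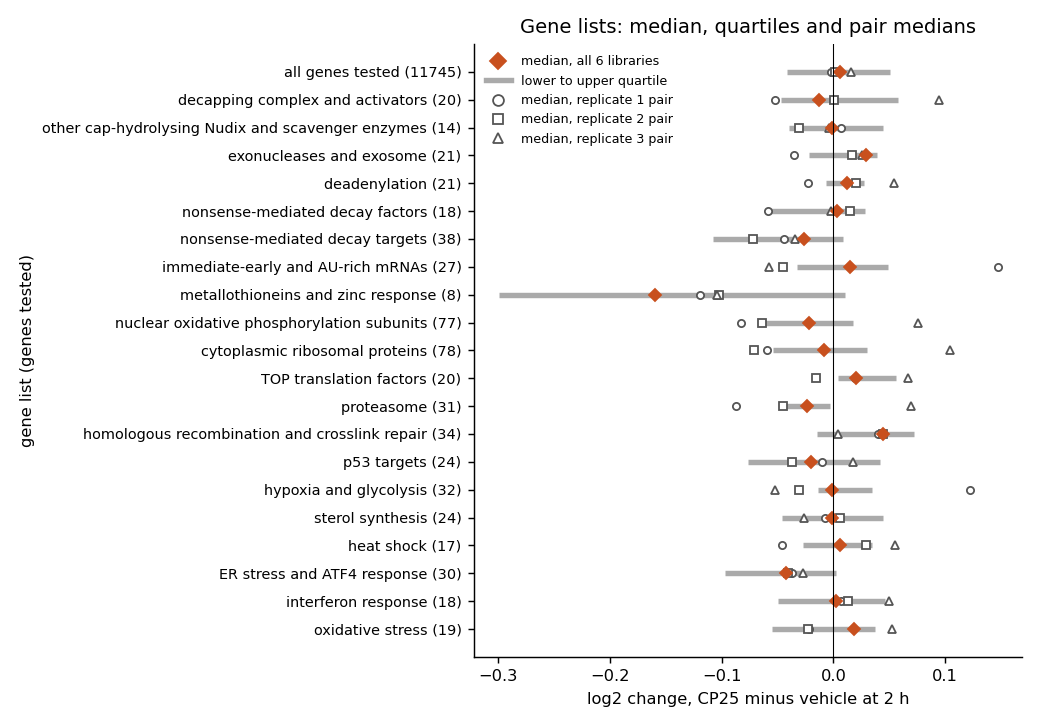
For each gene list, with the number of genes tested in brackets, the orange diamond is the median log2 change of FPKM + 1 at 2 h, CP25 minus vehicle, the grey bar runs from the lower to the upper quartile, and open shapes are the medians of the 3 same-numbered pairs. All list medians lie between -0.16, for the zinc list, and 0.04, for homologous recombination and crosslink repair.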

How the data were processed

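Poly(A) RNA of 12 HEK293T libraries, 3 per treatment and time, had been sequenced. The authors deposited FPKM values per gene and library in 1 table per time. The submitters' processing notes name hg19 as the build and Trimmomatic 0.36, Bowtie2 2.2.3 and CASAVA 1.8.2 as tools. How FPKM was computed, and on which annotation, is not given in the sources used here. A p-value that the authors deposited per gene for CP25 against vehicle was used as an alternative. The means in that comparison matched those of the libraries to 1% for 99.7% of genes. Counts were not used, so depth was estimated from the FPKM step that 1 fragment makes in genes with a single transcript in GENCODE 29 and a length of at least 800 bases.

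CP25 was compared with vehicle on log2(FPKM + 1), with a pseudocount of 1 and a mean of at least 1 FPKM, in limma 3.58.1 (R 4.3.3) with variances moderated along a trend on the mean level and p-values adjusted by Benjamini-Hochberg over all genes tested. The difference between times was an interaction term with all 12 libraries fitted together. The length and GC content of transcripts were taken from GENCODE 29 and were known for 92.7% of genes tested. Promoter windows came from RefSeq on GRCh38.p14. 28 symbols that spreadsheets had turned into dates stayed in the fits and are not named. Small RNA genes were taken by symbol (snoRNA, small nuclear, Y, 7S and microRNA genes).

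Same-numbered vehicle and CP25 libraries at 2 h deviated together from their group means across all genes tested (r = 0.347, 0.44 and 0.147), and differently numbered ones had r of -0.439 to 0.117. Outside small RNA genes the same-numbered values were 0.671, 0.841 and 0.469, and the others ran from -0.709 to 0.25. Deviations sum to 0 within a group, so positive values for some pairs come with negative ones for others. The libraries were therefore also fitted as paired by number, with the replicate block, though the pairing was least clear for replicate 3. The main fit left the pairing out, so limma p-values and intervals given without mention of the block are unpaired. Its median interval half-width was 0.22 on the log2 scale, against 0.13 with the block. The labels give no more than a number, so the pairing rests on these correlations.

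The genes compared, the gene lists and the rule for naming genes were chosen with earlier results of these data known. Named genes were those past adjusted p 0.05 with no overlap between the groups, and, outside small RNA genes and clone names, up to 12 per direction with no overlap and the smallest p. To these were added 5 per direction with the smallest p under the replicate block, 5 per direction with the largest change without overlap at a mean of at least 10 FPKM, a fixed set around DCP2, and 2 to 4 members per list. The alternatives were the replicate block, length and GC correction, other pseudocounts, minimums, scalings and variance models, all 12 libraries in 1 fit, and leaving out each library. The fit was tested on simulated data with known changes.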

Additional observations from a re-analysis of the deposited data

How the results depend on the processing

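In all alternatives run, limma called 0 genes outside small RNA genes at 2 h. The single call among all genes, SNORD76, became 0 with robust variances, with all 12 libraries in 1 fit and with the authors' p-values. It also became 0 without small RNA genes and with length and GC removed, with the replicate block or alone (the latter chosen after seeing the data), but SNORD76 was not among the genes of those fits, so they say nothing of it. It ranged from 1 to 7 when 1 library was left out, with 7 without CP25 replicate 2, 5 without CP25 replicate 3 and 2 without vehicle replicate 1 or CP25 replicate 1. The 45 genes higher at an unadjusted limma p under 0.05 became 428 with the replicate block, 263 with the block and length and GC removed, 145 with no minimum and 23 at 5 FPKM, and 33 to 73 without 1 library, with 73 without CP25 replicate 2. The 42 lower became 386, 256, 194 and 20 in the same order, and 29 to 66, with 66 without CP25 replicate 3. The replicate block changed no other call. Genes without overlap became 474 higher and 401 lower with no minimum, and 114 lower at 5 FPKM. Leaving out 1 library gave 531 to 958 higher and 433 to 731 lower, where 5 libraries separate more easily than 6. Tests of the difference between times called 0 genes, and 0 to 2 without 1 library, all small RNA genes.

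The zinc list median moved from -0.16 to -0.22 and -0.23 at pseudocounts of 0.1 and 0.01, to -0.035 with no minimum and to 0.0042 at 5 FPKM, and ranged from -0.17 to -0.068 without 1 library, with -0.068 without vehicle replicate 2 and -0.094 without vehicle replicate 1. Leaving out 1 library changed the sign of the median in 19 of 20 lists, the zinc list being the exception. It also leaves the same-numbered partner of that library unmatched, so the sign changes do not show that a median rests on 1 library. The 3 pair medians had the same sign for ER stress and ATF4 (-0.04, -0.04 and -0.03). They also did for nonsense-mediated decay targets (-0.04, -0.07 and -0.03) and for repair (0.04, 0.04 and 0.0037). The interferon response (0.0072, 0.013 and 0.050) and the zinc list (-0.12, -0.10 and -0.10) also had pair medians of 1 sign. In the remaining lists the pair medians differed in sign, as for the proteasome (-0.09, -0.04 and 0.07). The widest ranges without 1 library were -0.14 to 0.19 for hypoxia and glycolysis, -0.11 to 0.024 for ER stress and ATF4, and -0.072 to 0.12 for immediate-early and AU-rich mRNAs. The decapping median ranged from -0.033 to 0.041 (0.041 without CP25 replicate 1), TOP from -0.0057 to 0.040 (lowest without CP25 replicate 3), repair from -0.013 to 0.056 (lowest without CP25 replicate 2) and interferon from -0.057 to 0.023 (lowest without vehicle replicate 2). The cause was not tested. All 26 genes named for no overlap kept their sign in every alternative. Their choice for full separation of the libraries largely fixed this in advance, so it says little of their robustness. Among all 166 named genes tested, which include those 26, 62 changed sign in some alternative, none of them called. Intervals were wider at 1 to 5 FPKM, with a median half-width of 0.26 on the log2 scale, than above 100 FPKM, with 0.18, and the part of depth in this was not tested.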
